A study of Homo sapiens with 9 samples.

Results

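Knockdown of SUZ12 was compared with a control hairpin by ATAC-seq, which marks open chromatin through the sites that the Tn5 transposase can reach. All 3 libraries came from MDA-MB-231, an established triple-negative breast cancer (TNBC) cell line. The shSUZ12 library and the Control shRNA libraries were both transduced with lentivirus for 24 h and held in 2 μg/ml puromycin for 72 h. The controls thus share these steps, while the labels do not say whether the libraries were prepared together. There was 1 shSUZ12 library and there were 2 Control shRNA libraries, among 9 libraries that also held 2 shEZH2, 2 shE2F1, 1 DMSO and 1 GSK126 library. The shEZH2 and shE2F1 cells went through the same transduction and selection. GSK126 inhibits the methyltransferase activity of EZH2 and DMSO is its solvent. Each of the 3 peak lists was cut to its 73441 peaks with the highest −log10 p, and peaks that overlapped by at least 1 bp were merged into 90076 regions. A region with a peak in the shSUZ12 list and in neither Control shRNA list was called gained, and a region with a peak in both Control shRNA lists and none in the shSUZ12 list was called lost. This gave 8269 gained and 6430 lost regions, 14699 in all, where the peaks of all 9 lists merged into 118719 regions. With 1 library against 2, no arrangement of the labels gives a p under 0.333, so no test was run, and shares carry 95% Wilson intervals that cover counting error only.

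SUZ12 is a core subunit of Polycomb repressive complex 2 (PRC2), which places methyl groups on lysine 27 of histone H3. SUZ12 and EED hold the catalytic subunit EZH2, or its relative EZH1, in an active form, and cells that lack SUZ12 lose most of this mark. PRC2 is best known for keeping CpG-rich promoters of developmental genes, such as the HOX clusters, silent. In TNBC cells EZH2 has also been studied for roles outside the complex, so that a SUZ12 knockdown addresses what follows from the loss of PRC2 itself.

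The shSUZ12 list held 73441 peaks as deposited, and the Control shRNA lists held 78600 and 81743. The cut therefore dropped none of the shSUZ12 peaks, 5159 of the first and 8302 of the second control list. The last peak kept had a −log10 p of 3.90 with shSUZ12, 7.23 in the first control and 8.36 in the second, and the first peaks dropped from the control lists had the same values as the last kept. Tags at the most frequent background, recovered from fold enrichment and −log10 p and taken as a sign of depth, were 2.11 with shSUZ12 against 1.79 and 2.08 in the controls. A peak list at a promoter does not report the amount of a protein, so the labelled knockdown was not checked by these data. The methods list 1 hairpin against SUZ12, so effects of the knockdown and of that hairpin alone cannot be told apart. The SUZ12 promoter itself had a peak in 9 of 9 lists. Of 12 mesenchymal and basal marker genes, 11 had a promoter peak in all 3 lists, among them vimentin (VIM), CD44 and AXL, and SPARC had none in any. Of 15 luminal markers, 10 had a promoter peak in all 3 lists, among them the keratins KRT8 and KRT18, while GATA3 had none and ESR1 lay at percentiles of 16.7, 26.7 and 14.3 in the shSUZ12 list and the 2 control lists.

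Sequences at the summits of 6 regions are given here because the results below return to them. They are gained and lost regions of high percentile, with and without peaks in the shEZH2 lists. Each is the 201 bp centred on the summit of the strongest peak, on the plus strand of GRCh38, from 5′ to 3′. Capitals mark the AP-1 site TGACTCA or its reverse complement TGAGTCA, which FOS and JUN family factors bind. A sequence with no capitals holds neither form.
CCDC85A intron, gained, chr2:56288032-56288232: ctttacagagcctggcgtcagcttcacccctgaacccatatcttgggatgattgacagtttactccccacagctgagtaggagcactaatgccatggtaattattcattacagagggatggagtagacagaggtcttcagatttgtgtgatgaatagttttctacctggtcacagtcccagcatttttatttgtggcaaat
LINC02451, gained, chr12:42679452-42679652: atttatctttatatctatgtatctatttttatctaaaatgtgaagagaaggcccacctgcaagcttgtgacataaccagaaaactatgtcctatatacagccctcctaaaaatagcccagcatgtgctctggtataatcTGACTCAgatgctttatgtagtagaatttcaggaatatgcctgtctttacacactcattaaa
intergenic near RAD23B, gained, chr9:107243881-107244081: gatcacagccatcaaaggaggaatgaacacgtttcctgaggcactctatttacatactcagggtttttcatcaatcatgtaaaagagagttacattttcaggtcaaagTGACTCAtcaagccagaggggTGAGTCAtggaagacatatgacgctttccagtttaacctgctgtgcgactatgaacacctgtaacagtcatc
GSAP intron, lost, chr7:77393357-77393557: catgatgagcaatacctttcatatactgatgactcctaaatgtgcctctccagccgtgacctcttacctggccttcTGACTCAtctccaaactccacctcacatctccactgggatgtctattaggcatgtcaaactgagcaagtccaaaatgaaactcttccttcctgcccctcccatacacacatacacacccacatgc
XPO4 intron, lost, chr13:20882904-20883104: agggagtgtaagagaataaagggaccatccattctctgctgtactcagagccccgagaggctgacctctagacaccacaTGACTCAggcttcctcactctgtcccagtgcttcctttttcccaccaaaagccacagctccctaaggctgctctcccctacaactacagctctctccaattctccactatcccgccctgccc
SYT17 intron, lost, chr16:19219909-19220109: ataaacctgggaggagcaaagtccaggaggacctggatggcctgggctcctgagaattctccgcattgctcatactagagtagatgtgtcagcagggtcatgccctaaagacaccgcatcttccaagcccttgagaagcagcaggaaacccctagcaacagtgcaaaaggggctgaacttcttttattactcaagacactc
Of these 6 windows, 4 held an AP-1 site. The gained region near RAD23B held 2 of them, with first bases 8 and 29 bp downstream of the summit, and the sites in the lost GSAP and XPO4 introns began at positions -24 and -21 relative to it.

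Gained regions made up 9.18% of the 90076 regions and lost regions 7.14%, and 55121 regions (61.2%) had a peak in all 3 lists. The counts for a single control set the scale of these numbers. Regions with a peak in Control shRNA 1 alone numbered 6430 and in Control shRNA 2 alone 6542, against the 8269 with a peak in shSUZ12 alone. Regions missing from 1 list only numbered 6430 for shSUZ12, 4003 for Control shRNA 1 and 3281 for Control shRNA 2. By both counts more regions set the shSUZ12 list apart from the other 2 than set either control list apart. This order was kept when fewer peaks were used: with 10000 peaks per list, 1041 regions were in shSUZ12 alone, 1002 in Control shRNA 1 alone and 851 in Control shRNA 2 alone, and with 40000 peaks the counts were 3550, 2870 and 2823. The other libraries were set against the same 2 controls, which they share with shSUZ12, each at its own number of peaks. The DMSO library, which carried no knockdown by its label, had 6797 gained and 4677 lost regions at 74657 peaks per list, and the 2 shEZH2 libraries had 8594 and 6181 gained with 6907 and 6594 lost, at 72202 and 58626 peaks. GSK126 had 5842 gained and 5129 lost at 68756, and the 2 shE2F1 libraries had 9302 and 9925 gained with 8523 and 6358 lost, at 68294 and 78600.

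**Figure D1:**
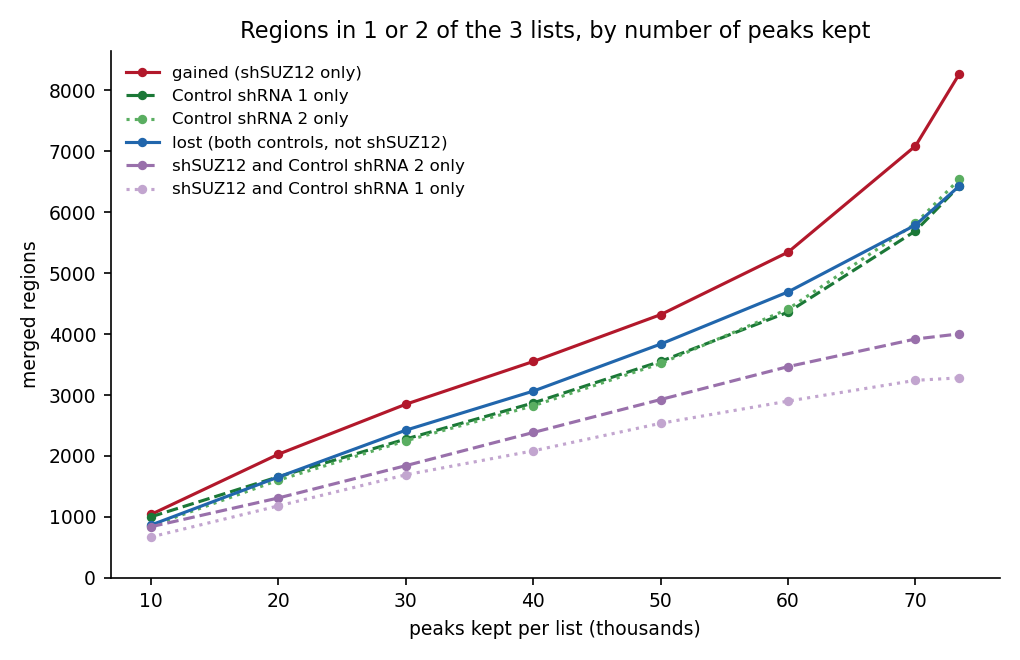
Merged regions (vertical axis) found in only 1 or only 2 of the 3 peak lists against the number of top peaks kept per list (horizontal axis, in units of 1000 peaks). Regions in shSUZ12 alone lie above those in either control alone at every number of peaks, from 1041 to 8269, and regions missing from shSUZ12 alone lie above those missing from either control alone, from 867 to 6430.

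At equal list lengths gained regions outnumbered lost ones, but this order depended on the cut. With the lists as deposited, which gave the controls more peaks, 6661 regions were gained and 8326 lost. When all 3 lists were held to the highest of the last −log10 p values, 8.36, 4568 were gained and 7303 lost. That alternative was added once these values had been looked at. Of the 8269 gained regions, 4228 (51.1%) had a shSUZ12 peak at or above that value, against 96.9% of the regions that the 3 lists shared. No peak of either control list as deposited lay in 6661 gained regions (80.6%), while 649 had a peak that the cut had dropped from the first control list and 1170 one dropped from the second. A control peak lay within 1 kb of 3353 gained regions (40.5%), and a shSUZ12 peak within 1 kb of 1123 lost regions (17.5%).

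Gained and lost regions were narrow and weak beside those that all 3 lists shared. Median widths were 242 bp for gained, 318 bp for lost and 662 bp for shared regions, and median tags at the summit were 17, 20 and 49. Strength was expressed as the percentile of a peak's fold enrichment within its own cut list, with 100 as the strongest. For a lost region the lower of the 2 control percentiles was used. By this measure the median gained region lay at percentile 17.4, with quartiles of 8.94 and 29.7, and the median lost region at 21.7, with quartiles of 10.9 and 34.9. The median shared region lay at 61.6. Regions of 1 control alone were like the gained ones, with medians of 19.2 and 20.2 and widths of 237 and 240 bp. Above percentile 50 lay 4.86% of gained and 8.74% of lost regions.

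**Figure D2:**
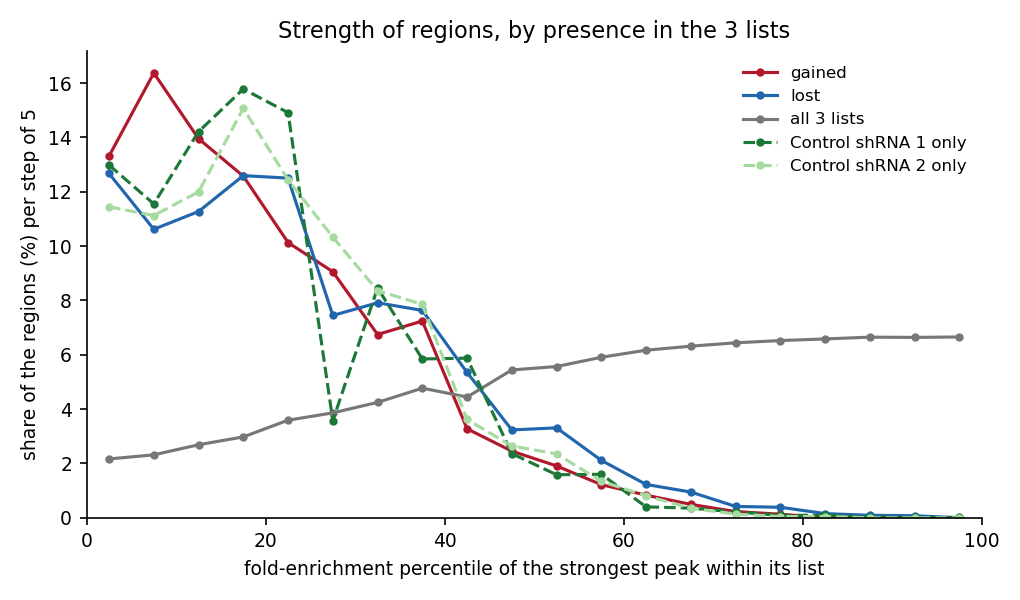
Share of regions (vertical axis, percent per step of 5 percentiles) against the fold-enrichment percentile of their strongest peak within its list (horizontal axis). Regions in shSUZ12 alone (gained), in both controls alone (lost) and in 1 control alone crowd below percentile 40, with medians of 17.4 to 21.7, whereas regions in all 3 lists spread upwards with a median of 61.6.

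The strongest gained regions lay outside promoters. The first by percentile among those with no control peak in the lists as deposited was intergenic on chromosome 1, 166 kb from the promoter of DUSP10, a phosphatase of stress-activated MAP kinases. It had 38 tags at the summit and a percentile of 86.1 with shSUZ12, and peaks in the second shE2F1 and the DMSO lists. The second lay in an intron of CCDC85A at chr2:56287908-56288365, with 40 tags and a percentile of 85.9, and both shEZH2 and both shE2F1 lists had a peak there. LINC02451 held the third at chr12:42679431-42679704, with 40 tags and a percentile of 79.8. In a coding exon of ST7 lay the fourth at 78.2, and in an intron of LMOD3, which encodes a leiomodin of muscle actin filaments, lay the fifth at the same rounded percentile of 78.2. The sixth, 25.2 kb from FNDC3A on chromosome 13, and the seventh, in a long noncoding RNA gene on chromosome 6, had 32 tags each, at percentiles of 77.0 and 76.4. These 2 were the only ones of the first 8 with no peak in any other list of the series. The eighth was intergenic near LRATD2 at percentile 76.2. None of the 8 overlapped a protein-coding promoter, and 1 of them, in LINC02451, had an AP-1 site.

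The strongest lost regions were mostly intronic, and the other libraries of the series had peaks there. First came a region in an intron of GSAP, which encodes the gamma-secretase activating protein, at chr7:77393227-77393671. It had 43 and 56 tags in the controls, at percentiles of 94.7 and 93.5, and no peak in the shSUZ12 list, while 6 of 6 other libraries had one. An intron of LRRC40 followed with 39 and 44 tags and percentiles of 94.2 and 92.0. The region in OCA2, which encodes a melanosome transporter, had 37 and 43 tags, and that in XPO4, which encodes a nuclear transport receptor, had 40 and 45. In a noncoding RNA gene 92.1 kb from PPP1R3C, which encodes a glycogen-targeting phosphatase subunit, a region had 39 and 62 tags at percentiles of 90.2 and 97.2. The remaining 3 lay 35.1 kb from YWHAQ, in an intron of CLEC16A, and in an intron of TAB3, an adaptor of the TAK1 kinase, with 47 and 55, 36 and 50, and 38 and 49 tags. Every one of these 8 regions had a peak in at least 5 of the 6 other lists. The regions in GSAP, XPO4, CLEC16A and TAB3 and the one near YWHAQ had an AP-1 site.

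By the position of their summits, gained regions lay in introns (43.1%), between genes (31.7%), in long noncoding RNA genes (12.5%), in exons (6.41%) and within 1 kb of a protein-coding transcription start site (6.32%). Lost regions had 48.8% in introns and 2.89% at promoters, and shared regions had 36.6% and 20.8%. A protein-coding promoter, taken as 1 kb on either side of the start of the canonical transcript, was overlapped by 573 gained regions, or 6.93% (95% interval 6.40 to 7.50), and by 226 lost regions, or 3.51% (3.09 to 3.99). Among regions of Control shRNA 1 alone and Control shRNA 2 alone the shares were 5.82% and 3.56%, so that the controls also differed from each other. The gained share stood above the lost share under every alternative computed. Against the same controls, the order was the same in the DMSO, GSK126 and both shEZH2 libraries, with 5.22% and 4.79% in DMSO. It was opposite in both shE2F1 libraries, at 5.01% and 5.34% in the first and 2.55% and 7.79% in the second. The order was thus not particular to shSUZ12. Regions missing from Control shRNA 1 alone or from Control shRNA 2 alone also had higher shares than lost regions. Regions rich in CpG made up 4.64% of gained, 1.42% of lost and 20.8% of shared regions.

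Of 20033 protein-coding promoters, 565 (2.82%) had a gained region and 241 (1.20%) a lost one. Most of them were already open: 316 of the 565 had a control peak beside the gained region and 166 of the 241 a shSUZ12 peak beside the lost one. The promoters with a gained region and no control peak numbered 249, and in 84 of them (33.7%, 95% interval 28.1 to 39.8) the gained region was CpG-rich. A lost region without a shSUZ12 peak was found at 75 promoters, CpG-rich at 19.

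The promoters whose gained region had the highest percentile, with no control peak in the region as deposited, came from genes of varied roles. ANKRD18B, GRIP1, which encodes a scaffold of glutamate receptors, and VWC2L came first, each with 20 tags and a percentile of 47.2 with shSUZ12 and no peak in either control. LIX1 and SCN1A, which encodes a sodium channel of neurons, had 19 tags and a percentile of 43.7. C16orf54 followed at 42.5, FLG, which encodes the skin protein filaggrin, at 41.7 with 37 tags, and EPPIN, a protease inhibitor of the epididymis, at 41.5 with 25. NUPR1 and TMEM212 had 18 tags each at 39.9. No control peak lay at any of these 10 promoters and none of the 10 regions was CpG-rich. Of them, 5 had no peak in any other list of the series, namely GRIP1, C16orf54, FLG, EPPIN and TMEM212, whereas SCN1A had one in both shEZH2 lists.

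Lost promoter regions were led by CCDC65, a gene of motile cilia, with 21 and 30 tags in the controls at percentiles of 56.5 and 69.5. The readthrough gene ENSG00000257767 within ACAD10 came next with 34 and 37 tags. At TNFAIP8L2 the lost region had 36 and 31 tags, but another peak of that promoter was present in all 3 lists, at percentiles of 79.9 with shSUZ12 and 88.7 and 85.2 in the controls. CNBD2 had 28 and 22 tags and CSRNP3 18 and 26. NOTCH2, which encodes a receptor of the Notch pathway, had 18 and 25 tags and no shSUZ12 peak at its canonical start, and its region was the 1 CpG-rich region of the 10. NOTCH2 has near-identical copies in the NOTCH2NL genes, and ANKRD18B has one in ANKRD18A, so reads at these promoters may be split between copies. RANBP6, ANKRD40CL, ENSG00000267561 and CSMD3 completed the list, with 20 and 21, 24 and 39, 19 and 20, and 21 and 19 tags. All 10 lost promoter regions had a peak in at least 2 of the 6 other lists, and 3 of them (CNBD2, RANBP6 and ENSG00000267561) had an AP-1 site.

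Across genes, counted from 10 kb before the start to 10 kb after the end, 4797 of 19962 protein-coding genes had at least 1 gained region, 4124 at least 1 lost region and 1548 both. Long genes led, since the count grows with length. SLC25A21, which encodes a mitochondrial carrier, had 7 gained and 0 lost of 25 regions over 495 kb, LDLRAD4 7 and 1 of 25, KIRREL3 7 and 2 of 27, and TENM2 7 and 2 of 31. In the other direction, ARHGAP24, which encodes a GTPase-activating protein, had 7 lost and 0 gained of 23 regions over 528 kb. CTNNA1, which encodes alpha-catenin, had 7 lost and 1 gained of 28, PALM2AKAP2 7 and 3 of 49, and MAGI1 6 and 1 of 31. RUNX1, a transcription factor gene of 1217 kb, had 7 lost and 6 gained of 67.

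Promoter peaks that all 3 lists shared were compared by percentile. Such peaks were found at 12720 promoters, of which 7965 (62.6%) had a higher percentile with shSUZ12 than in both controls and 1639 (12.9%) a lower one. The median was 80.5 with shSUZ12 and 74.0 and 75.0 in the controls. A promoter differed from the mean of its controls by a median of 4.55 percentile points, with quartiles of 0.506 and 10.5, and the 2 controls of a promoter lay a median of 4.82 points apart, without regard to sign. These shares moved with the cut: with the lists as deposited, 52.6% were higher and 19.2% lower, and with −log10 p ranked in place of fold enrichment 48.5% and 20.3%. Against the same 2 controls, 50.6% of promoters were higher and 20.0% lower in the DMSO library, 53.7% and 20.7% with GSK126, 36.8% and 33.6% in the first shEZH2 library and 49.4% and 27.1% in the second. These comparisons share their control libraries with the one for shSUZ12.

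PRC2 genes kept their promoter peaks. EZHIP, a PRC2 inhibitor that is silent in most tissues, had no promoter peak in any of the 9 lists, and the other 13 of 14 genes had one in all 9. The SUZ12 promoter had 162 tags and a percentile of 93.6 with shSUZ12, against 115 and 139 tags and 85.7 and 88.8 in the controls. At EZH2 the tags were 273 against 188 and 208 and the percentiles 89.5 against 77.7 and 85.1. EED, which reads the methyl mark, stood at 84.0 against 65.2 and 62.4, and the accessory subunit PHF19 at 67.8 against 52.2 and 47.9. In all, 11 of 13 (84.6%) were above both controls, beside 62.6% of all promoters, and 0 were below. EZH1 at 95.9 and RBBP7 at 90.9 lay between their controls. No PRC2 promoter had a gained or lost region. In the wider loci of the list, 6 gained (7.50%, 95% interval 3.48 to 15.4) and 8 lost regions (10.0%, 5.15 to 18.5) were among 80, and both intervals span the 8.52% and 6.89% over all protein-coding loci. JARID2, which helps to recruit PRC2, held 3 of the gained and 4 of the lost ones, and AEBP2 held 3 lost ones.

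E2F genes, which drive entry into S phase, and the inhibitors of cyclin-dependent kinases showed the same direction. Of 10 E2F and DP genes, 7 stood above both controls and 0 below, a share of 70.0% that was near the 62.6% of all promoters. E2F1 had 203 tags with shSUZ12 against 107 and 170, at percentiles of 88.2 against 52.0 and 81.1, and the 2 controls lay further apart than shSUZ12 lay from the second. E2F2 stood at 32.6 against 8.7 and 9.0, and E2F5 at 58.0 against 46.5 and 46.3. CDKN2A and CDKN2B, which are deleted in this cell line, had no promoter peak in the 3 lists. The other 5 inhibitor genes had one in all 3, and 4 of them stood above both controls. CDKN1B, which encodes p27, had 131 tags at a percentile of 58.7 against 112 and 108 tags at 42.5 and 29.0, and CDKN2C was at 69.7 against 46.2 and 51.2.

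**Figure D3:**
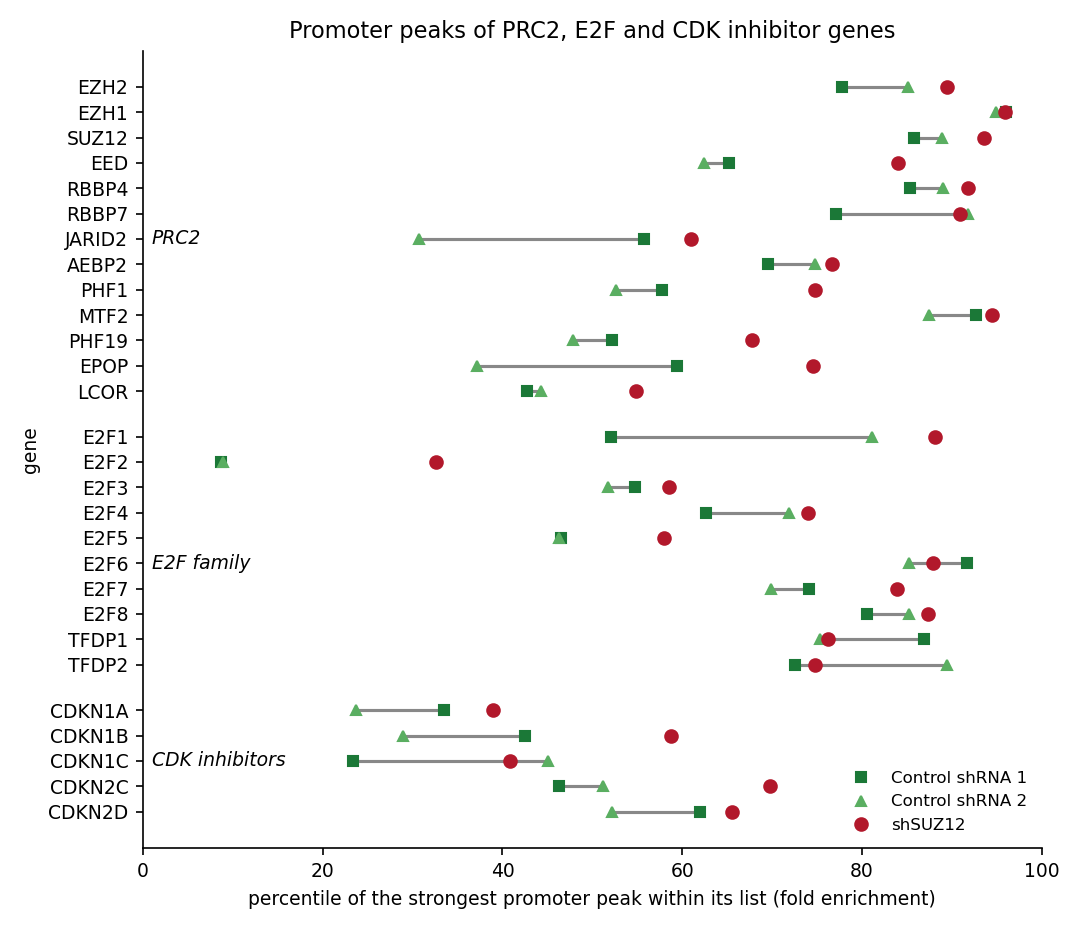
Percentile of the strongest promoter peak within its list (horizontal axis, 0 to 100, by fold enrichment) for genes of PRC2, the E2F family and CDK inhibitors (vertical axis) in shSUZ12 (circles), Control shRNA 1 (squares) and Control shRNA 2 (triangles), with a line joining the controls. SUZ12 lies at 93.6 against 85.7 and 88.8, and EZH1 at 95.9 and E2F6 at 87.9 lie between their controls.

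Promoters of cell cycle genes studied as targets of EZH2 and E2F1 were open in all 9 lists. CCNB1, which encodes cyclin B1, had 229 tags with shSUZ12 against 145 and 170, at percentiles of 99.9 against 95.2 and 98.1. RRM2, a subunit of ribonucleotide reductase, stood at 59.8 against 38.0 and 39.1, CDC20 at 85.5 against 76.6 and 76.7, and PLK1 at 57.4 against 50.2 and 53.9. PLK1 had fewer tags with shSUZ12, 45 against 50 and 66, so that its percentile and its tags ran in opposite directions. Among 42 mitosis genes 29 (69.0%) stood above both controls and 3, TPX2, PRC1 and ESPL1, below. Among 44 genes of DNA replication 26 (59.1%) were above and 5 below, and both shares were near that of all promoters. Of 131 regions in the loci of mitosis genes, 4 were gained (3.05%, 95% interval 1.19 to 7.59) and 14 lost (10.7%, 6.47 to 17.1), beside 8.52% gained and 6.89% lost over the loci of all protein-coding genes, and the interval of the lost share spans the latter. The lost ones included introns of AURKA, with 28 tags in both controls, NUF2, HMMR and TOP2A. At 173 regions of replication genes 16 (9.25%) were gained and 9 (5.20%) lost.

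HOX genes, the best known targets of PRC2, had few peaks in any list. Only 6 of 39 HOX promoters had a peak, in all 3 lists each, and none had a gained or lost region. HOXA13, HOXB9 and HOXD1 stood above both controls, HOXB5 and HOXC5 below, and HOXD4 between. At HOXB5 the percentiles were 48.3 with shSUZ12 against 72.6 and 66.0. In the loci of the HOX genes, counted once where they overlap, 6 of 40 regions were gained (15.0%, 95% interval 7.06 to 29.1) and 1 was lost, and the interval spans the 8.52% of all loci. The gained ones lay in the HOXC cluster near HOXC9 with 42 tags, at HOXD3, at HOXD9 and near HOXD12 with 12, 11 and 29 tags, and in the HOXB cluster near HOXB2 and in HOXB3, with 12 and 10. All 6 were weak, at percentiles of 4.20 to 13.3, and each had a peak in at most 1 of the 6 other lists. The region near HOXB2 was the 1 CpG-rich region of the 6. At HOXC5 the lost region had 33 and 40 tags.

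The other developmental transcription factor genes were closed in the main. Of 144 promoters, 52 had a peak in any of the 3 lists and 47 in all 3, of which 22 (46.8%) stood above both controls and 10 (21.3%) below, beside 62.6% and 12.9% of all shared promoters. Gained regions touched 4 of the promoters (2.78%), near the 2.82% of all promoters. IRX1 had 22 tags there with shSUZ12 and GBX2 13, and POU3F2 and NKX6-1 had 34 and 18 beside stronger promoter peaks. GBX2 was the 1 of these with no control peak at its promoter, although a control list as deposited held a peak that the cut had dropped. Lost regions touched BARHL1, IRX1 and FOXC1, with control tags of 31 and 26, 28 and 22, and 42 and 45. Their percentiles were 19.1, 4.89 and 0.622. IRX1 thus had a gained and a lost region within the same promoter. In the loci 30 of 303 regions (9.90%) were gained and 19 (6.27%) lost, beside 8.52% and 6.89% over all loci. The strongest gained one lay near TWIST1 at percentile 48.5, where 5 other lists also had a peak.

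Genes that EZH2 has been reported to silence in cancer were mostly open already. Of 24 names, 23 matched a gene, since RKIP is an older symbol of PEBP1, and 17 had a promoter peak in all 3 lists. Of these, 13 (76.5%) stood above both controls, beside 62.6% of all shared promoters, including IGFBP3 at 32.5 against 13.2 and 12.7 and KLF2 at 76.0 against 57.7 and 52.2. DAB2IP, a Ras and NF-kB inhibitor, was the 1 below, at 1.5 against 12.9 and 7.8. CDH1, which encodes E-cadherin, had a promoter peak with 24 tags with shSUZ12 and 18 in Control shRNA 1 and none in Control shRNA 2. RUNX3 and RASSF1 had none in any of the 3 lists at the canonical start. WNT5A had a gained region of 19 tags, at percentile 1.05, and FOXC1 a lost one, at percentile 0.622.

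Promoters of secreted and immune genes gave a few single cases, to be read beside the 2.82% of all promoters with a gained and the 1.20% with a lost region. In the invasion list the collagenase gene MMP1 and the matrilysin gene MMP7 had gained regions of 17 and 18 tags at promoters with no control peak, MMP9, which encodes a gelatinase, had a lost region of 19 and 22 control tags with no shSUZ12 peak, and THBS1 had a lost one of 66 and 67. Among the NF-kB dependent cytokine genes, CXCL1, CXCL8 and CSF3 had gained regions of 20, 24 and 44 tags, at percentiles of 2.90, 1.07 and 1.19. CSF3 was the 1 with no control peak at its promoter, and the CXCL1 region held a control peak that the cut had dropped. The main promoter peaks of CXCL1 and CXCL8 stood at 65.5 against 52.1 and 38.7, and at 75.3 against 96.2 and 82.4. IFIT1, OAS2 and GBP1 had gained regions among 31 interferon response genes that matched a gene of the annotation, and their own promoter peaks stood at 82.8, 81.5 and 29.4 against 76.9 and 63.0, 82.8 and 83.7, and 15.7 and 10.0. No lost region touched a promoter of either list. Gained regions were found at 3 of 15 luminal promoters (20.0%), ESRP1, PGR and KRT8, but each of these promoters also had a control peak. The ESRP1 and PGR regions held a control peak that the cut had dropped. Promoter peaks stood at 23.7 against 28.0 and 7.34 for ESRP1, and at 49.1 against 37.3 and 46.1 for KRT8. PGR stood at 12.3 against 12.1 in Control shRNA 2. Of 10 luminal promoters with a peak in all 3 lists, 3 stood above both controls and 1 below. FOXA1, the pioneer factor of luminal cells, had a lost region of 36 and 42 tags and no shSUZ12 peak. JUN had a gained region of 106 tags beside its main promoter peak, but at a percentile of only 0.444. SNAI2, a repressor of epithelial genes, had a lost region of 33 and 53 tags at percentile 8.41. The main promoter peak of SNAI2 stood at 65.9 against 38.4 and 45.1. The mitosis list held 1 gained promoter region, at ANLN with 62 tags and a percentile of 0.626. The CDK inhibitor list held 1, at CDKN1B with 49 tags and a percentile of 2.13. The promoters of PRC1, E2F and antigen presentation genes held none, and 14 of 20, 7 of 10 and 11 of 18 of those with a peak in all 3 lists stood above both controls. These shares, 70.0%, 70.0% and 61.1%, were near the 62.6% of all shared promoters.

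AP-1 sites were rarer in gained than in lost regions. Within 100 bp of the summit 1442 gained regions, or 17.4% (95% interval 16.6 to 18.3), and 2043 lost regions, or 31.8% (30.6 to 32.9), held TGACTCA on either strand, beside 28.8% of the regions that all 3 lists shared and 27.2% of all 90076. With a common lowest −log10 p the shares were 22.2% of gained and 32.0% of lost regions, and with 58626 peaks per list 25.5% and 34.6%. The gap in the main lists was widest among weak peaks. There the shSUZ12 list reached down to a −log10 p of 3.90 and the controls only to 7.23 and 8.36. Up to percentile 10 the shares were 8.84% for gained and 27.4% for lost, from 30 to 40 they were 28.2% and 34.8%, and above 60 they were 29.4% (22.5 to 37.3, n = 143) and 39.4% (33.1 to 46.1, n = 213). Regions in Control shRNA 1 alone had 22.5% and in Control shRNA 2 alone 27.9%, so that the controls also differed. Lost regions are in 2 lists, and so are those missing from 1 control alone. These had the site in 27.8% where Control shRNA 1 lacked the peak and in 21.4% where Control shRNA 2 did. The lost GSAP and XPO4 introns printed above carry the site, and the gained CCDC85A intron does not. Against the same 2 controls the DMSO library had the site in 18.2% of its gained and 31.0% of its lost regions, and the second shE2F1 library, in the opposite order, in 30.7% and 22.9%. In the remaining 4 libraries the shares were 18.9% to 24.9% of gained and 28.1% to 31.9% of lost regions. Sites for CTCF, the insulator protein, were found in 1.91% of gained, 5.18% of lost and 4.45% of all regions. The TEAD site GGAATG was found in 18.2% of gained (17.4 to 19.0), 16.5% of lost (15.6 to 17.4) and 17.2% of all regions.

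**Figure D4:**
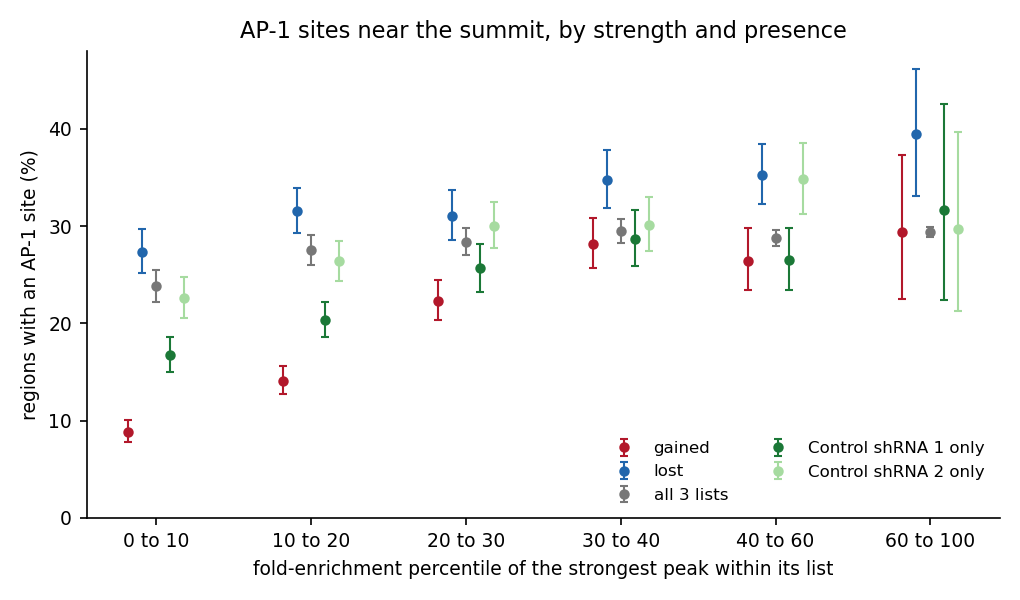
Share of regions with TGACTCA on either strand within 100 bp of the summit (vertical axis, percent, bars are 95% Wilson intervals) by the fold-enrichment percentile of the strongest peak (horizontal axis). Gained regions lie lowest among weak peaks, at 8.84% up to percentile 10 against 27.4% for lost regions, and their intervals overlap those of shared regions from percentile 30 on.

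Few gained regions recurred in both shEZH2 lists. A peak of the first shEZH2 list as deposited lay in 1651 gained regions (20.0%) and of the second in 770 (9.31%), which are lists of 72202 and 58626 peaks. Both had one in 438 (5.30%, 95% interval 4.83 to 5.80) and neither in 6286 (76.0%). Of the other libraries, each taken alone, DMSO had a peak in 22.1% of gained regions, GSK126 in 16.5% and the 2 shE2F1 libraries in 16.6% and 30.5%. As deposited, these lists held 74657, 68756, 68294 and 85812 peaks, so the shares are not at equal length. Both shE2F1 lists had a peak in 11.1% of gained regions. Of the regions that all 3 lists shared, 81.0% had a peak in both shEZH2 lists. Of the 438 regions, 214 (48.9%) also had a DMSO peak. In 66 gained regions both shEZH2 lists and GSK126 had a peak and DMSO had none. These were 0.798% of gained regions, near the 0.737% of shared regions. When all 5 lists of shSUZ12, Control shRNA and shEZH2 were cut to 58626 peaks, the share in both shEZH2 lists was 13.0%. Regions that recurred were somewhat stronger, with a median percentile of 25.5 against 16.7 for those in neither shEZH2 list, and 28.5% of them (24.5 to 32.9) had an AP-1 site against 16.2%.

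After CCDC85A and LMOD3, the strongest gained regions with a peak in both shEZH2 lists lay 8.98 kb from CD163, with 30 tags, 39.3 kb from RAD23B, which encodes a DNA damage recognition factor, with 48 tags, and 311 kb from C11orf87, with 45 tags. Their percentiles were 73.3, 73.1 and 72.8. The region near RAD23B, whose sequence is printed above, also had peaks in the second shE2F1, the DMSO and the GSK126 lists, and the one near C11orf87 had a peak in all 6 other lists. The region near CD163 had none in DMSO.

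Of the lost regions, 2361 (36.7%, 95% interval 35.5 to 37.9) had no peak in either shEZH2 list, against 5.47% of the regions that all 3 lists shared, and 1773 (27.6%) had one in both. Neither shE2F1 list had a peak in 21.2% of lost and 2.87% of shared regions, so the contrast was not particular to shEZH2. A DMSO peak was present in 67.2% of lost and 96.0% of shared regions. In 639 lost regions (9.94%) neither shEZH2 list nor GSK126 had a peak and DMSO had one, beside 8.62% of gained and 1.19% of shared regions. When the shEZH2 lists were cut with the rest the share in neither was 27.0%. First by percentile among those in neither shEZH2 list was the intron of SYT17 printed above, with 41 and 38 tags in the controls at percentiles of 95.8 and 84.5 and with peaks in both shE2F1 lists and DMSO. An untranslated exon of CERS6, a ceramide synthase gene, had 27 and 35 tags, an intron of PARD3, a gene of cell polarity, 27 and 34, an intron of STON2 37 and 40, and a region in a noncoding RNA gene 32.7 kb from PSMD7, a proteasome subunit gene, 28 and 38. All 5 had a DMSO peak.

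Counted over the 6 other libraries, gained regions were mostly found in few and lost regions in many. By rule a lost region had a peak in both Control shRNA lists, while a gained region needed a peak in the shSUZ12 list only. Lost regions were thus already chosen for recurrence before this count. Regions of a single control list were not counted in this way, so whether the contrast is particular to shSUZ12 was not tested. No other list had a peak in 3764 gained regions (45.5%) and in 404 lost ones (6.28%). All 6 had one in 69 gained regions (0.834%), 781 lost regions (12.1%) and 40623 shared regions (73.7%). The median number of other lists with a peak was 1 for gained, 3 for lost and 6 for shared regions.

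**Figure D5:**
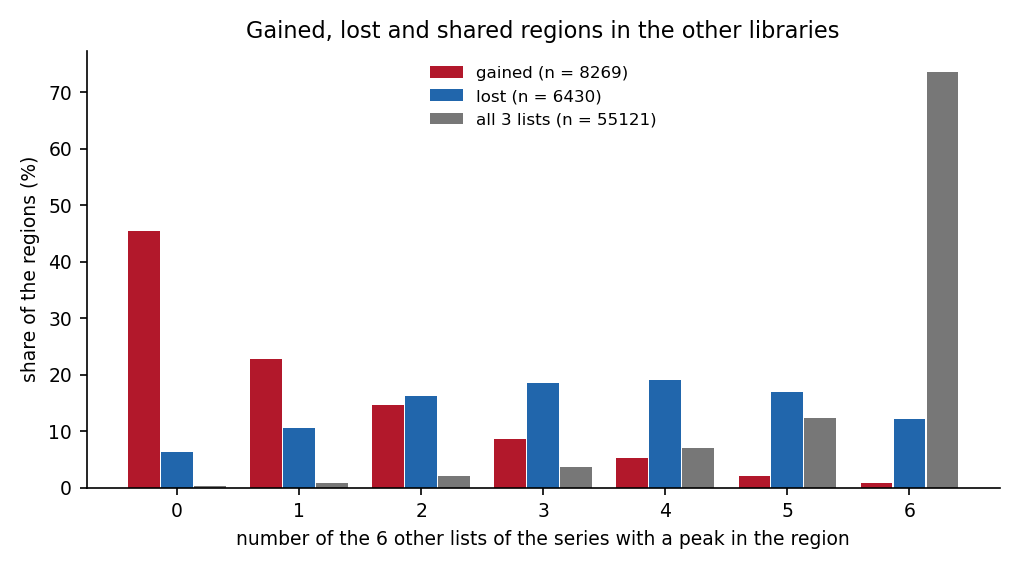
Share of gained, lost and shared regions (vertical axis, percent) by the number of the 6 other lists of the series that had a peak there (horizontal axis). Gained regions are most often in none of them, 45.5%, lost regions spread from 0 to 6 with a median of 3, and 73.7% of shared regions are in all 6.

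Gained and lost regions were spread over all chromosomes. The gained share ran from 6.40% of regions on chromosome 22 to 11.5% on chromosome 4, and the lost share from 6.27% on chromosome 6 to 8.17% on chromosome 18. In 409 windows of 5 Mb with at least 100 regions the gained share had a median of 8.82% and ran from 0.885% to 20.2%, with the highest value on chromosome 3 between 175 and 180 Mb, where 21 of 104 regions were gained and 7 lost. The lost share had a median of 7.02% and ran from 1.41% to 14.5%, highest on chromosome 11 between 130 and 135 Mb, where 24 of 166 were lost and 18 gained.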

How the data were processed

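ATAC-seq peak lists of 9 MDA-MB-231 libraries were used in NarrowPeak form. Per the submitters' processing notes reads were aligned with Bowtie2 to hg38, and the methods shift them for the Tn5 insertion. The methods name MACS2 as the peak caller for ChIP-seq and name none for ATAC-seq. The deposited columns hold the authors' peak score, a ratio (fold enrichment at the summit), −log10 p and −log10 q. The authors' p-values and q-values compare a peak with its own local background, not conditions. Library read totals were not given in the lists, so depth is unknown beyond the tags below.

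Lists were cut to 73441 peaks by −log10 p and merged at 1 bp. Tags were recovered from fold enrichment and −log10 p in 100% of peaks within 0.01. Genes were taken from GENCODE release 44 on GRCh38 and a promoter was 1 kb on either side of the canonical start. CpG-rich regions had a GC content of at least 55% around the summit and a raised CpG ratio. Scripts used Python 3.11.15, numpy 2.4.6, pandas 2.3.3, scipy 1.17.1 and matplotlib 3.10.9, and the region counts were tested on simulated data. Named were the 8 regions, 10 promoters and 5 loci highest by rule in each direction, the 5 highest recurrent regions, PRC2 genes, 5 genes of the study, and list members with a gained or lost promoter region. Other list members were named as examples after their values were seen. 1 locus that the rule names is not reported here. The members, the 16 gene lists and the rules were chosen with earlier results of these data known.

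Alternatives changed the cut, the merging, the promoter, the motif window, the ranking and the controls. No p-value was computed.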

Additional observations from a re-analysis of the deposited data

How the results depend on the processing

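No paired analysis was possible because shSUZ12 is 1 library with no replicate number to match. Of 120 values recomputed under 17 alternatives, 50 were labelled as staying and 70 as moved. A share stayed when it lay within the Wilson interval of its main value. Region counts were given a wider margin that is not an error. Gained counts of 6514 to 11836 stayed beside 8269 in the main setting, and lost counts of 4624 to 8326 beside 6430. Counts that stayed could thus still reverse the order of gained and lost. The gained share at promoters exceeded the lost share in 14 of 14 settings with both values, the main one included, the AP-1 share was lower in gained than in lost regions in 13 of 13, and more shared promoters were higher than lower in 13 of 13. More regions were gained than lost in only 7 of 12. Where no value is given below, it stayed by these rules or the alternative did not touch it. The causes were not tested.

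Leaving out 1 control gave 11836 to 12702 gained and 13143 to 13216 lost regions. It gave 7.27% to 8.01% of gained and 3.83% to 5.14% of lost regions at promoters, 9.89% to 9.99% of gained in both shEZH2 lists and 52.5% to 53.0% of lost in neither. AP-1 shares were 18.3% to 20.4% of gained and 26.7% to 29.7% of lost, and 74.4% to 74.8% of shared promoters were higher and 25.2% to 25.6% lower.

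With no cut, 5.89% of gained and 4.16% of lost regions lay at promoters, 4.16% of gained were in both shEZH2 lists, 41.4% of lost in neither, 29.5% of lost had AP-1, and 52.6% of promoters were higher and 19.2% lower. Requiring absence from the lists as deposited gave 5.89% of gained at promoters and 4.16% in both shEZH2 lists, and by construction no value for shared promoters. With −log10 q of at least 5, 5420 were gained, 5.85% at promoters, 5.87% in both shEZH2 lists and 20.1% with AP-1, and 52.6% of promoters were higher and 19.0% lower. With a common lowest −log10 p, chosen after seeing the data, 4568 were gained, 8.12% in both shEZH2 lists and 22.2% with AP-1, 32.5% of lost were in neither, and 52.8% of promoters were higher and 18.8% lower. With 58626 peaks, 5228 were gained, 7.84% at promoters, 17.3% in both shEZH2 lists and 25.5% with AP-1, and of the lost 19.9% were in neither and 34.6% had AP-1.

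Ranking the cut by fold enrichment gave 11.0% of gained and 2.06% of lost at promoters, 9.21% of gained in both shEZH2 lists, 39.1% of lost in neither and 16.5% of gained with AP-1. Windows around summits gave 10.5% and 6.52% at promoters, 11.0% in both and 34.2% in neither. With DMSO added to the controls 4223 were lost, 6.26% of gained and 2.94% of lost lay at promoters, 3.58% were in both, 29.8% in neither, and 47.7% of promoters were higher and 9.45% lower. Cutting the shEZH2 lists too gave 13.0% in both and 27.0% in neither. Promoters by summit gave 6.32% and 2.89%, and by every transcript 13.7% and 10.4%. A window of 50 bp gave AP-1 shares of 12.1% and 23.4%. Promoters ranked by −log10 p gave 48.5% higher and 20.3% lower.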
